A study of Mus musculus with 6 samples.

Results

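The 10 goblet cell secretory genes Fcgbp, Agr2, Spdef, Zg16, Retnlb, Spink4, Klk1, Creb3l1, Galnt12 and Clca3 were followed in the duodenum of Nkx2.2 mutant and control mice. They were taken by name from gene tables of 23699 rows, each matched 1 row, and all 10 were among the 15864 rows tested. RNA of 6 whole duodenal pieces, each the first stretch of intestine after the stomach of a 6-week-old mouse on a mixed strain background, was sequenced as 1 library per numbered sample. The 3 mutants had the genotype Nkx2.2flox/TN; Villin-Cre/+; Rosa26Tomato/+. Villin-Cre is a Cre recombinase driven by an intestinal epithelial promoter, and TN is an allele of the homeobox factor Nkx2.2 with a mutated TN domain. Of the 3 controls, control 1 and control 2 were Nkx2.2flox/+; Rosa26Tomato/+, and control 3 was Nkx2.2flox/+ without the Tomato reporter. All 6 samples carried 1 floxed allele. The mutants alone carried Cre, and they carried the TN allele in every tissue, so Cre, the TN allele and epithelial loss of the floxed copy cannot be told apart.

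Goblet cells are the mucus-secreting cells of the intestinal epithelium. Mucin is folded in their endoplasmic reticulum, given sugar chains in the Golgi apparatus, packed into granules and released with other secreted proteins that build and arm the mucus layer. Most of these products are made all the time. Retnlb, which encodes the resistin-like molecule RELM-beta, is instead an inducible goblet cell product that is known in mice to respond to bacterial colonisation and to type 2 cytokines.

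Promoter windows from 250 bases before to 50 bases after the start are held by the RefSeq table (build GRCm38.p6) for 4 members. These 4 were the members with an entry and were not chosen by their values. Fcgbp, Agr2 and Spdef varied under 1.5-fold between libraries, and Klk1 varied 3.23-fold. Capitals mark TATAA on the strand of the gene and TTTATG, a CDX-type motif of intestinal homeobox factors, on either strand.
Fcgbp: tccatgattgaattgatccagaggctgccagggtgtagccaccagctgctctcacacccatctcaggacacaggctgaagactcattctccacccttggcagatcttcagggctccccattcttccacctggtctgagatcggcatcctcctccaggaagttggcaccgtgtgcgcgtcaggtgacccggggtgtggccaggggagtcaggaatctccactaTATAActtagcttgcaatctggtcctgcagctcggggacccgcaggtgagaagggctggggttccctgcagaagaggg
Agr2: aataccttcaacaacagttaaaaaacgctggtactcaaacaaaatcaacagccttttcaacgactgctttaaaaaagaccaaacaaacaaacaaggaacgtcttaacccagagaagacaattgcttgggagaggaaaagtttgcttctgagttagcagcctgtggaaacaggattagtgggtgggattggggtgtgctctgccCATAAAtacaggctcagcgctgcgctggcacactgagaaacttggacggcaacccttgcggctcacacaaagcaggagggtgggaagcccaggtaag
Spdef: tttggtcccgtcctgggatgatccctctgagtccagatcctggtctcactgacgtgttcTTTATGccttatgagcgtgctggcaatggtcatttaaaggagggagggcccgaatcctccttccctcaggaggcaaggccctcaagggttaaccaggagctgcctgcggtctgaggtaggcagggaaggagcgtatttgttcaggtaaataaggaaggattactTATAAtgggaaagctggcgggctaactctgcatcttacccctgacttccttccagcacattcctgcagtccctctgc
Klk1: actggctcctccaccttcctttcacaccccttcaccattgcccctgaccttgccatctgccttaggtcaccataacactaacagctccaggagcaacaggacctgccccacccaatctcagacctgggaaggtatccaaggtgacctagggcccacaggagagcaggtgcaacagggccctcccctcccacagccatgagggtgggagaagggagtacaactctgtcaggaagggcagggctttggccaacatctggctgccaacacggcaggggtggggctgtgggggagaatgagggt
These windows lie at chr7:28070986-28071285 (plus strand), chr12:35992675-35992974 (plus), chr17:27728902-27729201 (minus) and chr7:44225110-44225409 (plus), in the order shown. TATAA was found in Fcgbp at position -28 and in Spdef at -27 relative to the start, and 17.5% of 32851 windows hold it. TTTATG or its complement was found in Agr2 at -47 and in Spdef at -191, and 11.9% of windows hold it. The letters TNAAGTG, a core of NKX2-type sites (11.5% of windows), and TTCNNNNGAA, a STAT6-type site (6.95%), searched on both strands, were in none of the 4 windows. Retnlb, Zg16, Spink4, Creb3l1, Galnt12 and Clca3 had no entry.

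Libraries held about 16880000, 25910000 and 21970000 reads in mutant 1, 2 and 3 and 14210000, 21250000 and 19910000 reads in control 1, 2 and 3, as implied by the confidence intervals of the deposited FPKM values (fragments per length of transcript and per library depth). Xist, the RNA of the inactive X chromosome, was at 23.2 FPKM in mutant 3 and 34.0 FPKM in control 3 and below 1 FPKM in the other 4 libraries, so 1 library of each group was from a female. Summed FPKM of 10 pancreatic acinar genes ran from 2145 to 9572 in mutants and from 14.4 to 8351 in controls, so the dissected pieces held unequal amounts of pancreatic RNA. The 8 enterocyte markers summed to between 21547 and 30731 FPKM in mutants and between 18671 and 30126 FPKM in controls. Smooth muscle markers summed to between 366 and 488 FPKM in mutants and between 511 and 720 FPKM in controls. The Brunner gland and mucous neck genes Muc6 and Tff2 summed to between 74.3 and 177 FPKM in mutants and between 20.3 and 526 FPKM in controls. The part of these tissue differences in the goblet values was not tested. The goblet marker list was the 10 members with Tff3 and Muc2, so it is no separate measure of goblet content. Its 11 genes with a row were all detected, and the mucin Muc2 had no row under that name. In whole tissue, fewer goblet cells and less RNA per goblet cell cannot be told apart.

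No goblet secretory gene passed the test between mutants and controls. Of the 10 members, 0 were called at an adjusted p of 0.05 by limma on log2(FPKM + 0.1) with Benjamini-Hochberg adjustment, as were 0% of all 15864 tested rows. 1 member, Galnt12, had an unadjusted p under 0.05 with the lower value in mutants, where 4.32% of all rows did. The median log2 fold change, mutant minus control, was 0.03 over the members and -0.05 over all tested rows, with 5 members positive and 5 negative. At an unadjusted p under 0.05 in either direction it was 1 member of 10, against 5.81% of all rows, and limma-voom on the implied reads also called 0 members and 0 rows. The members parted more in how far they varied between libraries. The largest value over the smallest was under 1.5-fold for 6 members, under 2-fold for 7, and 156-fold for Retnlb.

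**Figure D1:**
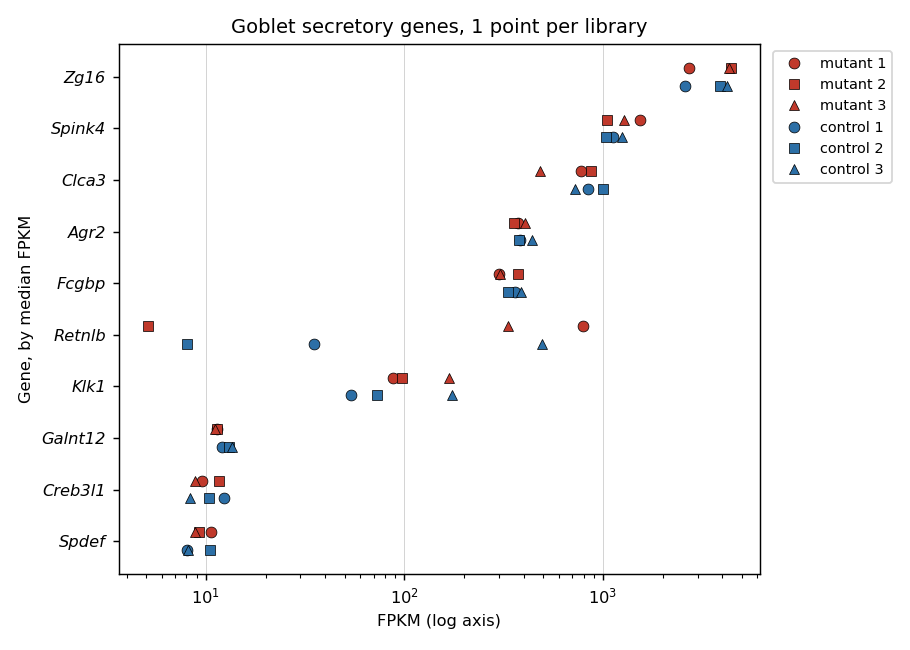
FPKM (log axis) of the 10 genes, ordered by median, with mutant libraries in red above control libraries in blue and the replicate number shown by the symbol shape. Retnlb is spread from 5.11 to 798 FPKM, while Agr2 lies between 356 and 439 FPKM in all 6 libraries.

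Among the secreted products, Zg16 was the most abundant. It encodes a lectin-like protein of mucus that binds the wall of Gram-positive bacteria (mm9 chromosome 7, 134193670 to 134195491, minus strand, protein coding). Zg16 was measured at 2705, 4401 and 4311 FPKM in mutant 1, 2 and 3 and at 2591, 3878 and 4232 FPKM in control 1, 2 and 3. Mutant 1 and control 1 were the low libraries, and the groups overlapped almost fully. Zg16 alone ranked between 12 and 20 among all rows in each library by FPKM and took 0.405% to 0.685% of the summed FPKM in mutants and 0.414% to 0.612% in controls. Its mean was 3806 ± 954 FPKM in mutants and 3567 ± 863 FPKM in controls (SD, n = 3 each), with a log2 fold change of 0.09 and a 95% interval from -0.56 to 0.75. This small difference turned negative in 3 of the 6 fits with 1 library left out. With the mean log2 level of the pancreatic acinar genes as a covariate, the log2 fold change of Zg16 was -0.19. The part of pancreatic RNA in the Zg16 values was not tested beyond this covariate.

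Spink4, a small Kazal-type protease inhibitor of goblet granules (mm9 chromosome 4, 40867089 to 40878428, plus strand), followed by median. It had 1547, 1053 and 1285 FPKM in mutant 1, 2 and 3 and 1129, 1042 and 1245 FPKM in control 1, 2 and 3. Mutant 1 was the highest library, and both libraries numbered 2 were the lowest of their groups. The log2 fold change was 0.17 with a 95% interval from -0.22 to 0.56, and 2 of 3 mutants lay above the control mean. It was 0.0346 without mutant 1, 0.31 without mutant 2 and 0.11 without control 2.

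Clca3, called gob-5 and Clca1 elsewhere, is a secreted metalloprotease of mucus (mm9 chromosome 3, 144667501 to 144695740, minus strand). It was at 776, 871 and 485 FPKM in mutant 1, 2 and 3 and at 838, 1008 and 721 FPKM in control 1, 2 and 3. Each numbered mutant lay below the control of the same number, and the library numbered 3, the female one, was the lowest in each group. Its log2 fold change was -0.30 with a 95% interval from -0.87 to 0.27 and an adjusted p of 0.81 in limma. Without mutant 3 the value was -0.04. With the replicate number as a block in limma, the unadjusted p was 0.048 and the adjusted p was 0.61. That fit asks about the difference within same-numbered libraries, a pairing taken from these same data and not from the labels.

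Fcgbp encodes the IgG Fc-binding protein, a large structural partner of mucin in mucus (mm9 chromosome 7, 28856255 to 28905883, plus strand). Fcgbp was measured at 299, 375 and 302 FPKM in mutant 1, 2 and 3, against 360, 331 and 389 FPKM in control 1, 2 and 3. Mutant 1 and mutant 3 were below every control, while mutant 2 lay between control 1 and control 3. With 38628 to 74699 implied reads per library, counting error was small against the spread between libraries. The log2 fold change was -0.15 with a 95% interval from -0.43 to 0.13. Without mutant 2 it was -0.26, at an unadjusted p of 0.042 and an adjusted p of 0.66 in limma.

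Agr2 and Galnt12, which act in folding and glycosylation, had the smallest within-group SDs of the 10 members. Agr2 is a disulfide isomerase of the endoplasmic reticulum that mice need to make intestinal mucin (mm9 chromosome 12, 36719512 to 36730668, plus strand). Its values were 375, 356 and 405 FPKM in mutant 1, 2 and 3 and 382, 377 and 439 FPKM in control 1, 2 and 3. The highest library in each group was the one numbered 3, and the difference was -0.08 on the log2 scale with a 95% interval from -0.31 to 0.16. In fold terms that interval ran from 0.807 to 1.12. With 1 library left out the log2 difference ran from -0.12 to -0.00489.

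Galnt12, which adds the first sugar of mucin-type O-linked chains (mm9 chromosome 4, 47104825 to 47135914, plus strand), was the only member whose groups did not overlap. It had 11.4, 11.4 and 11.2 FPKM in mutant 1, 2 and 3, against 12.0, 13.2 and 13.5 FPKM in control 1, 2 and 3. All 3 mutants lay below all 3 controls, as in 9.92% of all tested rows, and 0 members had all mutants above all controls, as 3.13% of rows did; 13.1% of rows did not overlap in either direction. The mean was 11.3 ± 0.132 FPKM in mutants and 12.9 ± 0.781 FPKM in controls (SD, n = 3 each). The difference was -0.19 on the log2 scale (SE 0.08), with an unadjusted p of 0.044 and an adjusted p of 0.79 in limma, and an exact permutation p of 0.1, two-sided, which is the smallest that 3 against 3 allows. Each library gave 340 to 591 implied reads for this gene, and the intervals on the single values, such as 10.2 to 12.5 FPKM in mutant 1 and 12.4 to 14.7 FPKM in control 3, are wide against the gap. Under trimmed mean scaling the value was -0.15 and under quantile normalization -0.14, both with an unadjusted p above 0.1.

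Spdef and Creb3l1 are the transcription factors of the set. Spdef is an ETS factor needed for goblet and Paneth cell maturation in mice (mm9 chromosome 17, 27851392 to 27865896, minus strand). It had 10.6, 9.22 and 8.86 FPKM in mutant 1, 2 and 3 and 8.05, 10.5 and 8.12 FPKM in control 1, 2 and 3. These values interleave, and the log2 fold change was 0.11 with a 95% interval from -0.20 to 0.42, and from 0.0349 to 0.23 with 1 library left out. Creb3l1, also called OASIS, is a factor held in the membrane of the endoplasmic reticulum that acts in goblet cell maturation in the mouse colon (mm9 chromosome 2, 91822485 to 91864327, minus strand). It was at 9.62, 11.6 and 8.85 FPKM in mutant 1, 2 and 3 and at 12.3, 10.4 and 8.32 FPKM in control 1, 2 and 3. The library numbered 3 was the lowest of each group, and the difference of -0.03 on the log2 scale changed sign with the scaling.

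**Figure D2:**
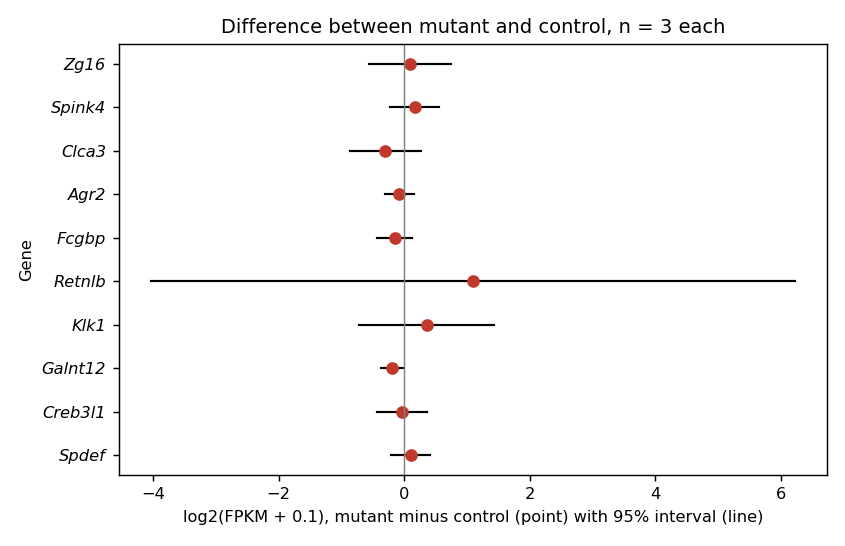
Difference in log2(FPKM + 0.1), mutant minus control, for the 10 genes, with the limma estimate as a point and its 95% interval as a line. The interval of Agr2 runs from -0.31 to 0.16, and that of Retnlb runs from -4.03 to 6.23.

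By level, which FPKM gives per length, the order of medians was Zg16, Spink4, Clca3, Agr2, Fcgbp, Retnlb, Klk1, Galnt12, Creb3l1 and Spdef. Zg16, Spink4, Clca3 and Agr2 followed each other in that order in all 6 libraries without overlap of their ranges. Agr2 was above Fcgbp in 5 libraries, and the ranges of that pair overlapped, as did those of Galnt12 with Creb3l1 and of Creb3l1 with Spdef. Retnlb had no fixed place among the 10. Its place was 3 in mutant 1, 10 in mutant 2 and 5 in mutant 3, and 7 in control 1, 10 in control 2 and 4 in control 3.

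Retnlb (mm9 chromosome 16, 48816969 to 48819005, plus strand) differed between libraries of both genotypes. It was measured at 798, 5.11 and 334 FPKM in mutant 1, 2 and 3 and at 35.1, 8.09 and 491 FPKM in control 1, 2 and 3. High and low libraries occurred in each group, and the lowest library of each group carried the number 2. The low values were not at the detection limit: mutant 2 had 64 implied reads, with a deposited interval from 3.83 to 6.38 FPKM, and control 2 had 83, with 6.31 to 9.86 FPKM. The mean was 379 ± 398 FPKM in mutants and 178 ± 271 FPKM in controls (SD, n = 3 each), with the SD larger than the mean in both. In limma this gave a log2 fold change of 1.10 (SE 2.16, adjusted p 0.93), and the exact permutation p was 0.8, two-sided. Its 95% interval ran from 0.0611-fold to 75.1-fold, so these libraries bound a genotype difference of Retnlb only loosely. The value was 3.31 without mutant 2, 2.72 without control 3, 0.82 without control 1, 0.31 without mutant 3, -0.24 without control 2 and -0.32 without mutant 1.

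Retnlb was 1.13 higher in log2 fold change than the median of the other 9 members, a gap well inside the spread between libraries, whose SD for this difference was 3.46. The within-group SD of log2(FPKM + 0.1) was 3.47 for Retnlb, rank 30 from the top among 15864 rows. It was 0.11 for Agr2, 0.06 for Galnt12, 0.15 for Fcgbp, 0.18 for Spdef, 0.22 for Spink4, 0.24 for Creb3l1, 0.36 for Clca3, 0.39 for Zg16 and 0.72 for Klk1. The median over the 8958 rows with a mean of at least 5 FPKM was 0.12. Galnt12 and Agr2 were thus below that median, and the other 8 members were above it. Summed over the 9 members other than Retnlb, goblet secretory transcripts took 0.871%, 1.12% and 0.979% of FPKM in mutant 1, 2 and 3 and 0.862%, 1.06% and 1.05% in control 1, 2 and 3. Zg16 alone took 0.405%, 0.685% and 0.604% in the same mutants and 0.414%, 0.607% and 0.612% in the same controls. The sum thus rests largely on Zg16.

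**Figure D3:**
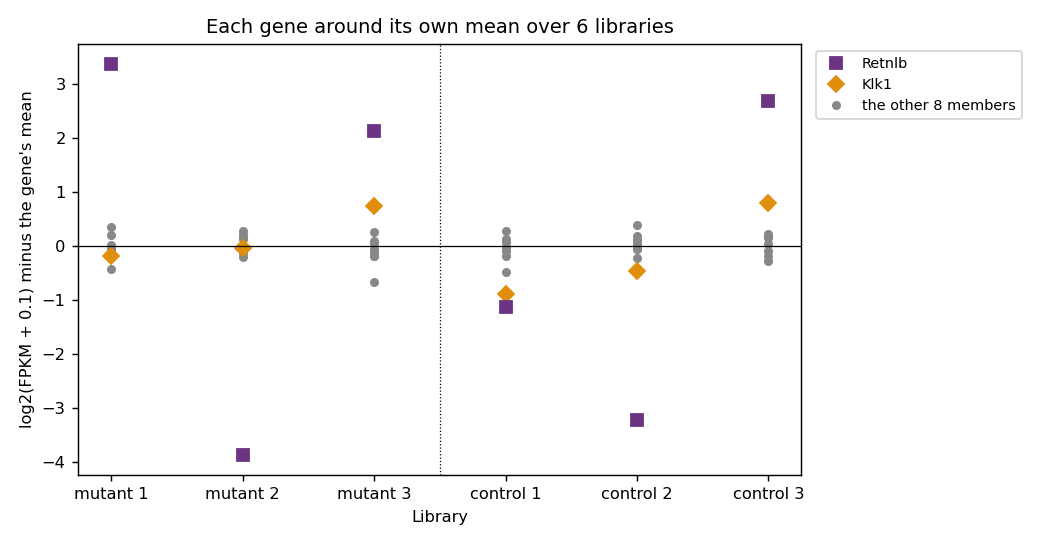
Each gene's log2(FPKM + 0.1) minus its own mean over the 6 libraries, by library. Retnlb ranges from -3.87 in mutant 2 to 3.39 in mutant 1, Klk1 is highest in mutant 3 and control 3, and the other 8 members stay between -0.66 and 0.40.

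Genes of the type 2 signalling list, which holds cytokines and factors of the kind known to act upstream of Retnlb, were set beside it. Of these, Il13, Il4, Il5, Il9, Stat6 and Cdx2 were chosen after their values were seen. Il13 had 0.480, 0.350 and 0 FPKM in mutant 1, 2 and 3 and 0.214, 0.523 and 0 FPKM in control 1, 2 and 3. Il4 was above 0 in all 6 libraries, with 0.606, 0.394 and 0.233 FPKM in mutant 1, 2 and 3 and 0.757, 0.246 and 0.538 FPKM in control 1, 2 and 3. Il4ra, a receptor subunit for IL-4 and IL-13, ran from 16.3 to 19.1 FPKM in mutants and from 16.9 to 21.7 FPKM in controls. Stat6, its signal transducer, ran from 45.7 to 54.1 FPKM in mutants and from 45.2 to 50.4 FPKM in controls, and Cdx2, an intestinal homeobox factor, from 61.1 to 72.6 and from 65.3 to 69.6 FPKM in the same groups. Il9 was listed at 0 in all 6 libraries. Il5 had 0.0902, 0.0878 and 0.0692 FPKM in mutant 1, 2 and 3 and 0, 0.0357 and 0.0381 FPKM in control 1, 2 and 3. Its mutants lay above its controls, as in 3.13% of all tested rows, but its mean of 0.0535 FPKM was below the filter. Il5 was therefore not tested. Among resistin relatives, Retnla stayed at or below 1.23 FPKM. Retnlg had 14.6, 12.5 and 10.9 FPKM in mutant 1, 2 and 3, against 7.49, 9.40 and 13.4 FPKM in control 1, 2 and 3, a 1.94-fold range beside the 156-fold range of Retnlb.

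Some other epithelial genes, among them Fut2 and Reg3b, which are known to respond to gut microbes, shared the low values of mutant 2 and control 2. They were chosen after their values were seen, so their likeness is a description. Fut2, which adds fucose to mucus and surface sugars, had 14.3, 2.10 and 5.04 FPKM in mutant 1, 2 and 3 and 9.41, 1.73 and 14.0 FPKM in control 1, 2 and 3. Gcnt3, which branches mucin sugar chains, had 43.0, 15.2 and 31.4 FPKM in mutant 1, 2 and 3 and 29.2, 14.1 and 30.1 FPKM in control 1, 2 and 3. Reg3b, an antibacterial lectin, had 21242, 1308 and 31280 FPKM in mutant 1, 2 and 3 and 13679, 1256 and 45574 FPKM in control 1, 2 and 3. In each of these genes the libraries numbered 2 were the lowest of their groups. Control 1 parted from the pattern, with Reg3b at 13679 FPKM and Retnlb at 35.1 FPKM. The labels do not say what the samples numbered 2 shared, and a part of it in these values was not tested.

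**Figure D4:**
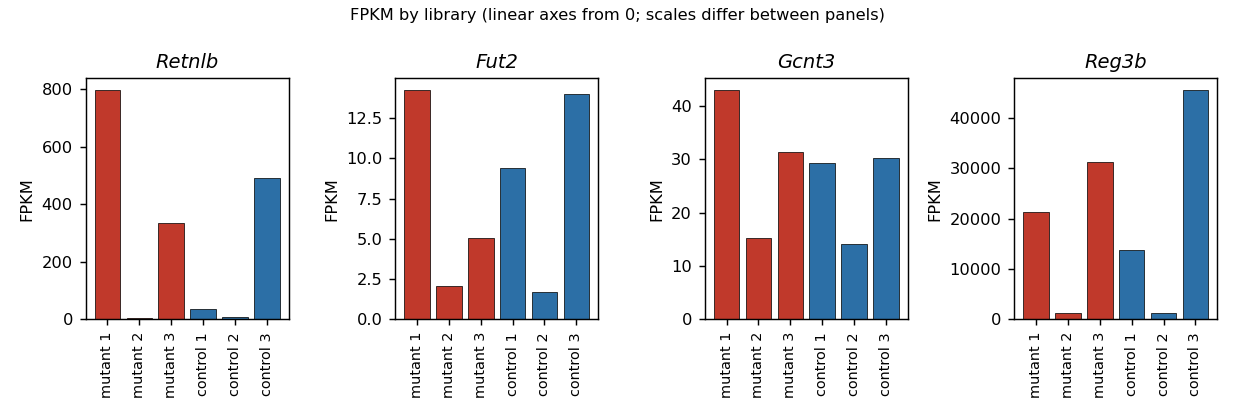
FPKM per library of Retnlb and of 3 genes chosen after their values were seen, mutants in red and controls in blue, on linear axes that start at 0 and differ in scale. Mutant 2 and control 2 are the lowest of their groups in every panel, at 5.11 and 8.09 FPKM for Retnlb and 1308 and 1256 FPKM for Reg3b.

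Klk1 had the widest range between libraries after Retnlb, at 3.23-fold, ahead of the 2.08-fold range of Clca3. It encodes tissue kallikrein, a serine protease that releases kinins and is made in goblet cells and also in pancreas, salivary gland and kidney (mm9 chromosome 7, 51480807 to 51484987, plus strand). Klk1 had 87.9, 97.5 and 168 FPKM in mutant 1, 2 and 3, against 54.0, 72.6 and 175 FPKM in control 1, 2 and 3. The female libraries mutant 3 and control 3 were the highest. The log2 fold change was 0.36 with a 95% interval from -0.71 to 1.43 and an adjusted p of 0.87 in limma. It was 0.00 without control 1, 0.07 without mutant 3, 0.22 without control 2, and 0.85 without control 3. In the 4 male libraries both mutants were above both controls, with a log2 fold change of 0.56 and an adjusted p of 0.94.

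Pancreatic acinar RNA was high in the libraries where Klk1 was high. The 10 acinar markers, all with a mean above the filter, summed to 2145, 2311 and 9572 FPKM in mutant 1, 2 and 3 and to 14.4, 326 and 8351 FPKM in control 1, 2 and 3. Libraries ranked by this sum and by Klk1 stood in the same order except for mutant 3 and control 3, which changed places at the top. With the mean log2 level of the acinar genes as a covariate, the log2 fold change of Klk1 was -0.32 in place of 0.36. Among the 4 male libraries the acinar sum ran from 2145 to 2311 FPKM in mutants and from 14.4 to 326 FPKM in controls, and Klk1 followed the same order there. Sex and the replicate number 3 coincide and cannot be told apart, and the part of acinar RNA in the Klk1 values was not tested beyond this covariate. Of 14 Klk1b relatives, whose sequences are close to Klk1 so that reads may be shared, only Klk1b5 averaged at least 1 FPKM, with 6.77, 6.67 and 13.4 FPKM in mutant 1, 2 and 3 and 4.69, 5.48 and 13.2 FPKM in control 1, 2 and 3.

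**Figure D5:**
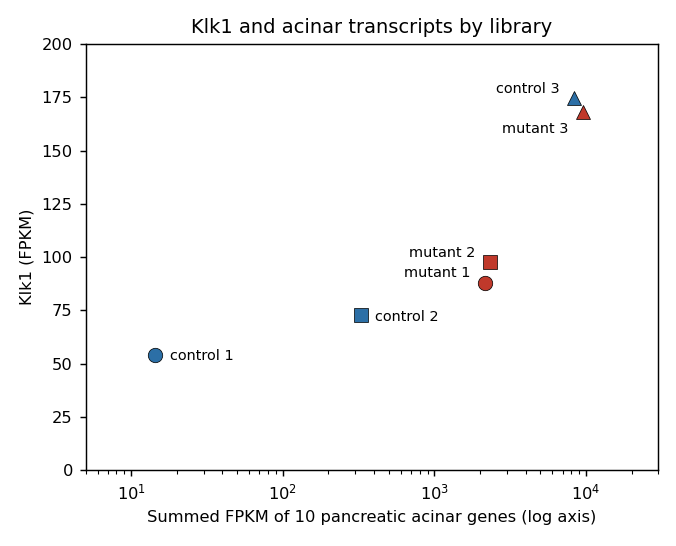
Klk1 (FPKM, from 0) against the summed FPKM of 10 pancreatic acinar genes (log axis), 1 point per library, mutants in red and controls in blue. Klk1 is lowest in control 1, at 54.0 FPKM beside an acinar sum of 14.4 FPKM, and highest in control 3 and mutant 3.

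Wider lists of the goblet programme held no called gene either, over 69 tested entries in 7 lists. Of the other goblet-enriched genes 6 of 9 were lower in mean log2 level in mutants, where 61.3% of all rows were, with a median difference of -0.19 beside -0.05 for all rows. In this list 3 had an unadjusted p under 0.05, all lower in mutants, as 4.32% of all rows did, and these 3 were also the ones with all mutants below all controls, as 9.92% of all rows were. Ern2, the endoplasmic reticulum stress sensor IRE1-beta of mucus-secreting cells, had 3.28, 4.26 and 2.98 FPKM in mutant 1, 2 and 3, against 4.70, 4.54 and 4.96 FPKM in control 1, 2 and 3. In limma it differed by -0.44 on the log2 scale (SE 0.15, adjusted p 0.79), and all 3 mutants lay below all 3 controls. Bcas1 averaged 5.87 ± 0.723 FPKM in mutants and 7.29 ± 0.533 FPKM in controls, and Sytl2, a granule-docking protein, averaged 5.58 ± 0.353 FPKM in mutants and 6.60 ± 0.527 FPKM in controls (SD, n = 3 each), also without overlap. Under trimmed mean scaling the unadjusted p in limma was 0.027 for Ern2, 0.041 for Bcas1 and 0.095 for Sytl2.

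Goblet fate transcription factors had 7 of 9 members with a negative value, a median of -0.12, and 2 at an unadjusted p under 0.05, both lower in mutants, beside 61.3% of all rows negative and 4.32% lower at that p. Hes1 (log2 -0.13), counted among the 7, acts against secretory fate, unlike Atoh1. Enteroendocrine markers, which belong to another secretory cell type, were lower in the same libraries, with sums of 69.3, 106 and 79.3 FPKM in mutant 1, 2 and 3, against 143, 162 and 146 FPKM in control 1, 2 and 3. For 5 of 5 of these markers all mutants lay below all controls, as in 9.92% of all tested rows. The part of these markers in the values of the fate factors was not tested. Atoh1, the factor that commits cells to the secretory lineage, averaged 7.02 ± 1.13 FPKM in mutants and 8.80 ± 0.815 FPKM in controls (log2 -0.33, SE 0.14). Foxa1 averaged 3.36 ± 0.185 FPKM in mutants and 4.07 ± 0.363 FPKM in controls (log2 -0.27), and Creb3l4 4.45 ± 0.398 and 5.06 ± 0.206 FPKM in the same groups (log2 -0.18). Each had an adjusted p of 0.79 in limma. Atoh1 and Foxa1 act before Spdef in secretory cell formation, and Spdef itself had a log2 fold change of 0.11.

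In the mucin O-glycosylation list, 15 of 18 enzymes had negative values around a median of -0.07, and 2 had an unadjusted p under 0.05, both lower in mutants. Over all rows 61.3% were negative around a median of -0.05, and 4.32% were lower at that p. C1galt1, which builds the core 1 chain on the sugar that Galnt enzymes add, averaged 16.6 ± 2.83 FPKM in mutants and 20.2 ± 0.838 FPKM in controls (log2 -0.30). Galnt5 had a log2 fold change of -0.50 and Galnt2 of -0.12. Under trimmed mean scaling the unadjusted p in limma was 0.059 for C1galt1 and 0.064 for Galnt5, both above 0.05. The endoplasmic reticulum folding list had 9 of 13 members positive and a median of 0.09, led by Hyou1 (0.17), Sdf2l1 (0.18) and Creld2 (0.26), and 0 of 13 at an unadjusted p under 0.05. The mucus scaffold list had 4 genes with a row, while Muc2 and Muc3 had none under these names. Its median was 0.03, led by Muc1 at 0.88, Muc4 at -0.31 and the trefoil peptide Tff3 at 0.13. Muc1 was 0.38 without control 1, 1.60 without control 3 and 0.42 with a pseudocount of 1, and Muc4 was -0.06 without control 1 and -0.62 without control 2. Tff3 averaged 2804 ± 222 FPKM in mutants and 2575 ± 283 FPKM in controls (SD, n = 3 each), a mean between those of Zg16 and Spink4. Resistin and CLCA relatives had a median of -0.07 over 7 tested genes, led by Retnla (0.89), Clca2 (-0.26) and Retnlg (0.35), and type 2 signals had a median of -0.01 over 9, led by Il4ra (-0.12), Gata3 (0.21) and Il33 (-0.13).

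In the authors' deposited table, which compares mutant with control counts by DESeq, all 10 members had an adjusted p of 1. The folds of mutant over control in the authors' deposited table were 2.21 for Retnlb, 1.22 for Klk1, 1.18 for Spink4 and 0.862 for Clca3, and between 0.905 and 1.12 for the other 6. In the authors' deposited table, 7 of 23284 genes had an adjusted p under 0.05, and no member was among them.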

How the data were processed

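Whole duodenal RNA of 3 mutant and 3 control mouse samples was sequenced, and groups came from the sample titles. The tools named in the submitters' processing notes are Cufflinks, TopHat, DESeq and CASAVA (1.8.2), with mouse build mm9; versions of the others are not given in the sources. As FPKM tables per the file headers, the authors deposited values of FPKM with a confidence interval for genes and for RefSeq transcripts, with coverage (mean read depth, not used) for transcripts. Each member had 1 transcript. The authors deposited a DESeq table with mean counts over size factors (a signal), their fold as a ratio and as log2, and p-values.

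The members and lists were chosen with earlier results of these data known. The members were the given names, and 7 further lists held 75 genes, of which up to 3 each with the smallest unadjusted p are named, beside others said to be chosen after their values were seen. The test was limma 3.58.1 (R 4.3.3) with a trended prior on log2(FPKM + 0.1). Rows averaging at least 0.1 FPKM entered (15864 tested, 7835 below), with no rescaling. P-values were adjusted by Benjamini-Hochberg over all tested rows. The fold of a low gene is understated on this scale. Labels number the samples and describe mice in triplicate, without naming each animal. In each group the library numbered 3 was female and the other libraries were male, so each group held more than 1 animal. The p-values measure the spread between these samples, and a technical part of it was not measured. The script was tested on simulated data. Reads were implied from the deposited intervals, taking value to upper bound as 2 standard errors. Among genes with 1 transcript, 87.8% to 88.2% of low values came within 0.05 of a whole number. High values and genes with more transcripts were not checked in this way. Intervals cover counting error only. Deviations from group means correlated between same-numbered libraries by 0.11, 0.21 and 0.39 for numbers 1, 2 and 3, each above 0.1. The numbers were therefore taken as pairs in the replicate block setting only, and the main test was unpaired. Mutant 2 and control 1, with different numbers, correlated by 0.13, above the 0.11 of number 1. Pairing by number comes from the data, not the labels. Sex was read from Xist above 1 FPKM. Alternatives were 17 planned settings, and a sex covariate and male libraries only were added after seeing the data. No columns of other samples were present.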

Additional observations from a re-analysis of the deposited data

How the results depend on the processing

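No member was called under any of the 17 planned or 2 added settings. The count of all called rows, 0 as reported, was 2 with the replicate block, 1 with a sex covariate, 1 in male libraries only and from 0 to 3 with 1 library left out. Rows at an unadjusted p under 0.05 were 922, against 578 in male libraries only and from 578 to 1188 with 1 library left out. Members at an unadjusted p under 0.05 were 1 as reported, 0 with quantile normalization, with trimmed mean scaling or in limma without trend, and 0 to 1 with 1 library left out. With the replicate block that member was Clca3 in place of Galnt12, in male libraries only Klk1 (unadjusted p 0.017), without control 3 also Klk1 (0.028), and without mutant 2 Fcgbp. The block changed no member's call. The members' median log2 fold change, 0.03, was -0.17 with the pancreatic covariate and from -0.0688 to 0.0231 with 1 library left out, and that of all rows, -0.05, was -0.0119 with quantile normalization and -0.00908 with trimmed mean scaling. Medians of the type 2 signals were 0.10 with the pancreatic covariate and from -0.16 to 0.0640 with 1 library left out, and those of the resistin and CLCA relatives from -0.12 to 0.0720. Signs turned with the pancreatic covariate for Zg16 (-0.19), Retnlb (-0.45), Klk1 (-0.32), Creb3l1 (0.18) and Muc1 (-0.0218), and for Creb3l1 with quantile normalization (0.0182) and trimmed mean scaling (0.00525). With 1 library left out, values ran from -0.32 to 3.31 for Retnlb, -0.12 to 0.32 for Zg16, -0.18 to 0.10 for Creb3l1 and -0.25 to 0.0108 for Il33. The cause of these changes was not tested. With 3 libraries per group, the 95% intervals bound the difference of Agr2 within 0.807-fold to 1.12-fold and that of Retnlb not usefully.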

Other observations

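Pla2g2a, a secretory phospholipase of Paneth cells and a marker on the Paneth list, was high in 3 libraries and low in 3, which were not the same libraries as for Retnlb. It had 1542, 15.2 and 1492 FPKM in mutant 1, 2 and 3 and 1388, 16.4 and 28.7 FPKM in control 1, 2 and 3. Control 1 was thus high in Pla2g2a and low in Retnlb, and control 3 low in Pla2g2a and high in Retnlb. Reg3g, a relative of Reg3b, had 6435, 734 and 9583 FPKM in mutant 1, 2 and 3 and 4874, 719 and 14181 FPKM in control 1, 2 and 3, low in the libraries numbered 2 like Reg3b. Clca6, a relative of Clca3, had 69.9, 79.5 and 38.8 FPKM in mutant 1, 2 and 3 and 83.1, 79.5 and 36.3 FPKM in control 1, 2 and 3, lowest in the female library of each group. These genes were chosen after their values were seen.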
